A study of Mus musculus with 24 samples.

Results

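The negative extraction, called NEG here, is the small RNA library made from 3T9 cells that had received no 4-thiouridine (4SU) but whose RNA still went through the purification meant for 4SU-labelled RNA. It was set against UNT, the total RNA of unlabelled cells sequenced without that purification. The 2 libraries were taken by their sample titles out of the 24 libraries of the series, and neither has a replicate. 3T9 is an immortalised line of mouse embryo fibroblasts. The study followed the decay of miRNAs by marking new RNA with 4SU and sampling the marked RNA over time.

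In NEG the cells were unlabelled and the RNA was purified. In the 21 labelled libraries the cells received 300 µM 4SU for 3 h and then 1 mM uridine, and the RNA was purified after 0, 2, 4, 6, 8, 10 or 12 h, once in each of 3 experiments. In the library called 4SU total the cells received 4SU and the RNA was not purified, and in UNT there was neither 4SU nor purification. The treatment field of the labels is the same for all 24 libraries and names 4SU also for NEG, while the title and the design text give NEG as unlabelled. NEG is taken as unlabelled here. All libraries were started from 300 ng of RNA per the labels' protocols, and the amount of RNA recovered from the beads was not used here, so every value below is a share of a sequenced pool and not an amount. The count table carries a code above each library that the labels do not explain. NEG shares its code with experiment 1, and UNT and 4SU total share another, so in NEG against UNT the purification and the code cannot be told apart.

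A miRNA is cut from a hairpin precursor that can give a 5p and a 3p strand, of which usually the more abundant is loaded into an Argonaute protein. Bases 2 to 8 of the strand form the seed that pairs with target mRNAs. The ends of a miRNA vary by trimming, by extension along the precursor and by bases that terminal transferases add without a template, and such variants are called isoforms. 4SU carries a sulphur atom to which biotin can be attached, and streptavidin beads hold biotin, so RNA that the beads hold without 4SU is the background of the method.

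The mature sequences that follow are those the values turn on, from RefSeq (GRCm38.p6), written 5′ to 3′ with the seed in capitals. The let-7 family comes first, in order of falling ratio of NEG over UNT, then other miRNAs with a high ratio, then those with a low ratio.
let-7e-5p: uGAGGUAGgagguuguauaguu
let-7a-5p: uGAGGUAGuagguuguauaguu
let-7c-5p: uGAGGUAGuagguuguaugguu
let-7b-5p: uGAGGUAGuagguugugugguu
let-7d-5p: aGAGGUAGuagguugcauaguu
let-7f-5p: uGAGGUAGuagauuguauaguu
let-7i-5p: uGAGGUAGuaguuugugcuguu
miR-98-5p: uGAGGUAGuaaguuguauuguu
let-7g-5p: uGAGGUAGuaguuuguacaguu
miR-296-3p: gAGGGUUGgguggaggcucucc
miR-351-5p: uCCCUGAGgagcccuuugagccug
miR-423-5p: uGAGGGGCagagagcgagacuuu
miR-744-5p: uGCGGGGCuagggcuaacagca
miR-193a-3p: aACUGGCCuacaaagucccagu
miR-29b-3p: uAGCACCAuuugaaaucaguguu
miR-29a-3p: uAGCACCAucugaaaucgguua
miR-21a-5p: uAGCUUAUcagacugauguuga
miR-22-3p: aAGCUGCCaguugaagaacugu
miR-301a-3p: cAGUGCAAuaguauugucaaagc
miR-19b-3p: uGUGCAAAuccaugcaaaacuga
miR-30e-5p: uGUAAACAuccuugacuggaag

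The loci of the main examples, in the same build and with genes of GENCODE vM21 on the same strand, were as follows. The miR-296-3p sequence lies at chr2:174267058-174267079 on the minus strand, outside the annotated genes of that strand. The let-7e-5p sequence lies at chr17:17830366-17830387 on the plus strand in an intron of Spaca6. The miR-351-5p sequence lies at chrX:53053315-53053338 on the minus strand, and that of miR-423-5p at chr11:77078122-77078144 on the minus strand in an intron of Nsrp1. The miR-22-3p sequence lies at chr11:75463772-75463793 on the plus strand in an exon of Mir22hg, and that of miR-21a-5p at chr11:86584120-86584141 on the minus strand in an exon of Vmp1. The miR-193a-3p sequence lies at chr11:79712009-79712030 on the plus strand.

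NEG held 283922 miRNA counts and UNT 6412428, a difference of 22.6-fold in depth, against 1133048 to 7886484 in the labelled libraries. In NEG 3 counts equal 10.6 CPM, the counts of a miRNA scaled to a common library total, the lowest level treated as measurable here. NEG held counts for 395 of the 1221 miRNA names and UNT for 777, of which 421 would be expected at the depth of NEG. Of the names in NEG, 14 had no count in UNT, and none of these passed 4 counts. The beads thus returned a broad pool, with 59.7% of its counts in 10 miRNAs that made up 69.6% of UNT. Intervals below are exact 95% intervals. They cover the error of counting and nothing else, since no molecular identifiers were read and neither library has a replicate. NEG against UNT, 1 library each, was described by these intervals and not tested across libraries, so no p-value is given.

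A miRNA was compared where NEG would hold at least 10 counts at equal shares, which left 204 miRNAs with 99.8% of the counts of NEG and 99.8% of those of UNT. Of these, 33 (16.2%) were at least 2-fold higher in NEG, with an interval that left out 1, and 60 (29.4%) were at least 2-fold lower. The other 111 did not meet this rule. The 33 higher miRNAs held 35.0% of the counts in NEG and 9.26% in UNT, and the 60 lower miRNAs held 8.38% in NEG and 37.6% in UNT. The median ratio on the log2 scale was -0.18, with quartiles of -1.23 and 0.57. Scaling by TMM moved that median by -0.42 and gave 21 higher and 85 lower, so that 19.8% of the calls were upward, against 35.5% with totals. The direction of a ratio that lies within this shift of 1 thus depends on the scaling. In these bulk libraries fewer cells of a type and less RNA per cell cannot be told apart, and a lower share can also come with a rise of other miRNAs.

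**Figure D1:**
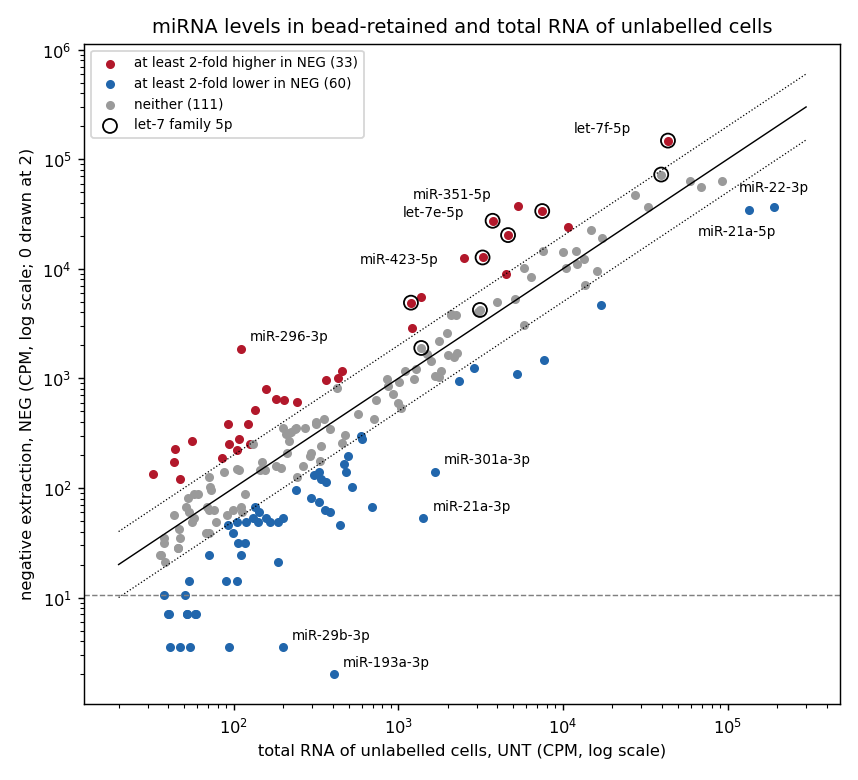
Level of each of the 204 compared miRNAs in NEG (vertical axis, CPM, log scale) against UNT (horizontal axis, CPM, log scale). The solid line marks equality, the dotted lines 2-fold, the dashed line 3 counts in NEG, and rings the let-7 family. The let-7 family lies above the line of equality and miR-22-3p and miR-21a-5p lie below it.

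The 10 most abundant miRNAs of NEG were let-7f-5p, let-7i-5p, miR-143-3p, miR-92a-3p, miR-27b-3p, miR-26a-5p, miR-351-5p, miR-22-3p, miR-182-5p and miR-21a-5p. Of these, 2 met the rule for higher and 2 for lower, and the others lay within 2-fold of UNT. miR-27b-3p, a regulator of Pparg, had 56357 CPM in NEG and 69338 CPM in UNT (ratio 0.813). miR-26a-5p had 47031 CPM in NEG and 27594 CPM in UNT (1.70), and miR-182-5p 36387 CPM in NEG and 32726 CPM in UNT (1.11, and 0.830 with TMM factors).

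The let-7 family, which represses growth and developmental genes such as Hmga2 and Lin28 in differentiated cells, was the largest single group in NEG. Its 9 members summed to 325614 CPM in NEG and 107835 CPM in UNT. Of the 9, 6 met the rule for higher and none for lower, with a median log2 ratio of 1.97, against -0.18 over all 204 compared miRNAs. The median stayed above 0 under each scaling tried, at 1.54 with TMM factors. The most abundant, let-7f-5p, had 147977 CPM (95% interval 146673 to 149289) in NEG and 43465 CPM (43307 to 43623) in UNT. That is a ratio of 3.40 (3.37 to 3.44). It stood at 130730, 131543 and 93955 CPM in the labelled pools at 0 h of experiments 1, 2 and 3, and at 32118 CPM in 4SU total. NEG and the labelled pools were thus both above the totals.

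Members of the family that share the seed differed widely. The highest ratio belonged to let-7e-5p, with 27437 CPM in NEG and 3740 CPM in UNT, a ratio of 7.34 (7.15 to 7.53). Its 0 h pools had 8888, 16410 and 6095 CPM and 4SU total had 3482 CPM. For let-7a-5p, let-7c-5p, let-7b-5p and let-7d-5p the ratios were 4.50 (4.40 to 4.60), 4.38 (4.25 to 4.50), 4.11 (3.88 to 4.36) and 3.91 (3.77 to 4.05). The ratio was 1.83 (1.81 to 1.86) for let-7i-5p, 1.37 for miR-98-5p and 1.34 for let-7g-5p. The intervals of miR-98-5p and let-7g-5p overlap, and so do those of let-7a-5p and let-7c-5p. Those of let-7c-5p and let-7b-5p and those of let-7b-5p and let-7d-5p overlap too. The interval of let-7e-5p stands apart from all the others. In the order of the sequences printed above, from let-7e-5p to let-7g-5p, the members hold 9, 8, 9, 10, 8, 7, 8, 7 and 7 G, so members with the same number of G had different ratios.

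The highest ratio of all compared miRNAs was that of miR-296-3p, from an imprinted region beside Gnas. It had 530 counts, or 1867 CPM, in NEG and 706 counts, or 110 CPM, in UNT, a ratio of 17.0 (15.1 to 19.0). The 0 h pools had 213, 353 and 154 CPM and 4SU total had 125 CPM. NEG was above all 21 labelled libraries, whose highest value was 460 CPM. Most of these reads were trimmed forms, 94.2% in NEG and 75.2% in UNT, and with canonical reads alone the ratio was 3.14 (1.66 to 5.54).

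Another 3 abundant miRNAs with high ratios come from different families. The X-linked miR-351-5p, which has the seed of miR-125, had 37450 CPM in NEG and 5320 CPM in UNT, a ratio of 7.04 (6.89 to 7.20). It stood at 8870, 16677 and 6998 CPM in the 0 h pools and 11621 CPM in 4SU total, so that against 4SU total the ratio was 3.22. By contrast miR-125a-5p and miR-125b-5p, with the same seed, had ratios of 0.969 (0.933 to 1.01) and 0.525 (0.502 to 0.549). For miR-423-5p there were 12528 CPM in NEG and 2518 CPM in UNT, a ratio of 4.97 (4.80 to 5.16), with 3798, 9331 and 2181 CPM in the 0 h pools. For miR-744-5p there were 5512 CPM in NEG and 1370 CPM in UNT, a ratio of 4.02 (3.81 to 4.24), and the 0 h pools had 1272, 3746 and 2559 CPM. In miR-296-3p, let-7e-5p, miR-351-5p, miR-423-5p and miR-744-5p, NEG lay above each of the 21 labelled libraries, and experiment 2 was the highest of the 0 h pools.

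The remaining miRNAs among the 12 with the highest lower bounds were less abundant. The metabolic regulator miR-378a-3p had 229 counts, or 807 CPM, in NEG and 1004 counts, or 157 CPM, in UNT, a ratio of 5.15 (4.44 to 5.95). The 0 h pools had 123, 125 and 131 CPM, all below UNT, while 4SU total had 281 CPM, against which the ratio was 2.87. For miR-7224-3p NEG held 65 counts (229 CPM) and UNT 283 (44.1 CPM), a ratio of 5.19 (3.90 to 6.81), which was 1.85 against 4SU total and then no longer met the rule. For miR-30c-1-3p NEG held 76 counts (268 CPM) and UNT 358 (55.8 CPM), a ratio of 4.79 (3.69 to 6.16), and 2.61 against 4SU total. miR-378a-3p and miR-7224-3p were higher in NEG than in UNT without being higher in the 0 h pools than in 4SU total. In this they differed from the 5p strands of the let-7 family.

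**Figure D2:**
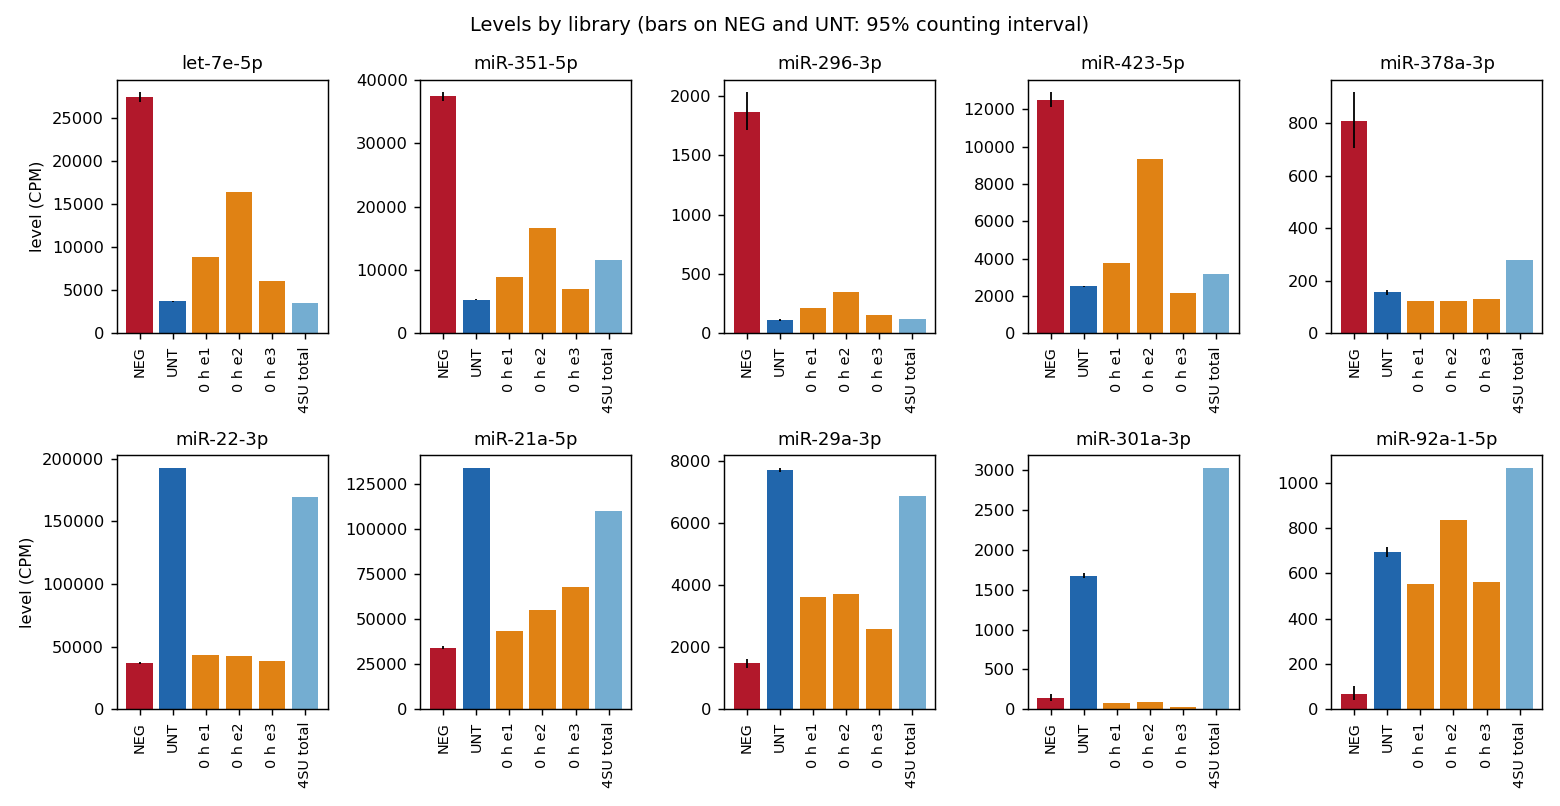
Level in CPM (vertical axis, from 0) of 10 miRNAs in NEG, in UNT, in the 0 h labelled pools of experiments 1 to 3 (e1, e2, e3) and in 4SU total, 1 library per bar. Lines on NEG and UNT are 95% counting intervals. The upper row shows miRNAs at least 2-fold higher in NEG than in UNT, such as miR-296-3p with 1867 and 110 CPM, and the lower row those at least 2-fold lower.

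Among the miRNAs that were lower, the most abundant were the fibroblast miRNAs miR-22-3p and miR-21a-5p. miR-22-3p, a miRNA of growth arrest and senescence, had 36912 CPM in NEG and 192630 CPM in UNT, a ratio of 0.192 (0.188 to 0.195). Its 0 h pools had 43589, 42573 and 38322 CPM and 4SU total had 169206 CPM. miR-21a-5p, which represses Pdcd4, had 34193 CPM in NEG and 134101 CPM in UNT, a ratio of 0.255 (0.250 to 0.260), with 43681, 54953 and 67760 CPM in the 0 h pools and 110089 CPM in 4SU total. For both, NEG and the 0 h pools lay below both totals, and for miR-21a-5p NEG lay below all 21 labelled libraries.

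The list of fibroblast or mesenchymal miRNAs (miR-21a, miR-22, miR-31, miR-143, miR-145, miR-199 and miR-214, both arms) had 14 compared members. None was higher and 8 were lower, against 16.2% higher and 29.4% lower of all 204 compared miRNAs. The median log2 ratio was -1.17, against -0.18 over all 204. With 4SU total in place of UNT, 6 of 14 were lower, with a median of -0.71, against -0.47 over all miRNAs compared that way. By ratio alone, without intervals, 68 of the 204 were at least 2-fold lower in NEG than in 4SU total. The list summed to 169448 CPM in NEG and 456146 CPM in UNT. Its top member in NEG, miR-143-3p, had 63919 CPM in NEG and 92715 CPM in UNT, a ratio of 0.689 (0.679 to 0.700). The ratio was 1.53 (1.49 to 1.57) for miR-31-5p, so the list did not move as a whole.

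The miR-29 family, known for repressing collagens and other matrix genes, was lower throughout its measured members. Of 7 names, 4 were compared and all 4 met the rule for lower, against 29.4% of all 204 compared miRNAs. Their median log2 ratio was -2.67, against -0.18 over all 204. miR-29a-3p had 1479 CPM in NEG and 7718 CPM in UNT, a ratio of 0.192 (0.174 to 0.211), and its 0 h pools had 3600, 3700 and 2581 CPM. miR-29b-3p had 1 count in NEG and 1282 in UNT, a ratio of 0.0176 (0.000446 to 0.0983), and its 0 h pools had 15.8, 18.9 and 11.1 CPM. Both were also lower in the labelled pools than in 4SU total, which held 6861 CPM of miR-29a-3p and 260 CPM of miR-29b-3p.

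The lowest upper bound belonged to miR-193a-3p, with 0 counts in NEG and 2615 counts, or 408 CPM, in UNT. It was at least 38.6-fold lower in NEG, with 3 counts in NEG as the floor. Its 0 h pools had 11.9, 16.9 and 6.07 CPM and 4SU total had 733 CPM. Other miRNAs without a count in NEG, miR-101c, miR-455-5p, miR-339-3p and miR-345-5p, had 163 to 233 counts in UNT and fell short of the count needed for a comparison. The minor strands of some abundant hairpins were low too. miR-21a-3p had 15 counts (52.8 CPM) in NEG and 9101 (1419 CPM) in UNT, a ratio of 0.0372 (0.0208 to 0.0614), and miR-31-3p had 1 count in NEG and 601 in UNT, a ratio of 0.0376 (0.000950 to 0.210). miR-92a-1-5p had 66.9 CPM in NEG and 695 CPM in UNT, a ratio of 0.0963 (0.0579 to 0.151), but 555, 837 and 561 CPM in the 0 h pools. In this case NEG was below every labelled library, while the 0 h pools lay near UNT and below 4SU total, which had 1068 CPM. miR-24-2-5p had 6 counts in NEG and 1197 in UNT, a ratio of 0.113 (0.0415 to 0.247).

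The proliferation-linked miR-17~92 and miR-106b~25 clusters had 15 compared members, of which none was higher and 7 were lower, against 29.4% lower over all compared miRNAs, with a median log2 ratio of -0.64 against -0.18. The lower ones include miR-19b-3p, with 59.9 CPM in NEG and 386 CPM in UNT (ratio 0.155, 0.0903 to 0.249), and miR-19a-3p, with 1 count in NEG and 346 in UNT. The abundant miR-92a-3p, which like miR-19b-3p has a copy in the Mir17hg transcript and another on chromosome X, had 63880 CPM in NEG and 58755 CPM in UNT, a ratio of 1.09 (1.07 to 1.10) that was 0.812 with TMM factors. miR-301a-3p, from an intron of Ska2, had 141 CPM in NEG and 1676 CPM in UNT, a ratio of 0.0841 (0.0600 to 0.115), with 79.7, 89.1 and 23.2 CPM in the 0 h pools and 3036 CPM in 4SU total. miR-181c-5p had 45.8 CPM in NEG and 444 CPM in UNT, a ratio of 0.103 (0.0549 to 0.177), while its seed mate miR-181b-5p had a ratio of 2.01 (1.93 to 2.09). Members of the miR-17~92 and miR-106b~25 clusters thus had different ratios. So did miR-181c-5p and miR-181b-5p, which share a seed and, like miR-301a-3p, do not belong to these clusters.

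The miR-30 family gave a further case. Of 10 compared members 2 were higher and 2 lower, against 16.2% higher and 29.4% lower of all 204 compared miRNAs. The median log2 ratio was 0.14 with totals and -0.28 with TMM factors, against -0.18 and -0.60 over all 204. miR-30e-5p had 1102 CPM in NEG and 5280 CPM in UNT, a ratio of 0.209 (0.186 to 0.233), and miR-30a-5p 4681 CPM in NEG and 17008 CPM in UNT, a ratio of 0.275 (0.261 to 0.291). miR-30c-5p, with the same seed, had 3867 CPM in NEG and 2087 CPM in UNT, a ratio of 1.85 (1.74 to 1.97), and miR-30d-5p a ratio of 0.896 (0.864 to 0.929). miR-30e-5p and miR-30c-1-3p, which was higher in NEG, both lie in introns of Nfyc.

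Seeds were read from the RefSeq mature sequence, which 171 of the 204 compared miRNAs had, so members without an entry are left out here. Over the 20 seeds that at least 2 of these 171 share, the let-7 seed GAGGUAG had the highest median log2 ratio, 1.97. The miR-19 seed GUGCAAA had the lowest, with values of -3.35 and -2.65 and both members lower. The miR-29 seed AGCACCA had 3 of 3 members lower, with a median of -2.38. The miR-17 seed AAAGUGC had 3 of 4 members lower, with a median of -1.20. Over all 204 compared miRNAs 29.4% were lower and the median was -0.18. For the miR-181 seed ACAUUCA the values ran from -3.22 to 1.01, and for the miR-125 seed CCCUGAG from -0.93 to 2.82.

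Called counts of the other lists stand against the 16.2% higher and 29.4% lower over all 204 compared miRNAs and their median log2 ratio of -0.18. The miR-15/16 family had 1 higher and 2 lower of 6 compared members (median log2 ratio -0.02), the miR-221 and miR-222 cluster 0 and 1 of 4 (-0.74), and the miR-23/27/24 clusters 0 and 3 of 8 (-0.68). With TMM factors 3 of 4 and 5 of 8 of these clusters were lower, against 85 of all 204 with that scaling. The miR-181 family had 1 higher and 2 lower of 6 (-0.48), with values that ran widely among its 5p strands, and neither of the 2 compared miR-26 members met the rule (0.58). The families of miR-10, miR-100 and miR-125 with miR-99 had 1 higher and 2 lower of 9 compared members, with a median of 0.18 that was -0.24 with TMM factors. The repeats of the Sfmbt2 intron (miR-297, miR-466, miR-467 and miR-669) had 5 higher and 1 lower of 8 compared members, with a median of 1.12. With TMM factors 2 were higher, against 21 of all 204, and the median was 0.69, against -0.60. Against 4SU total 2 of 9 were higher with a median of 0.61, where the median over all miRNAs compared that way was -0.47. By ratio alone, without intervals, 30 of the 204 were at least 2-fold higher in NEG than in 4SU total. The highest ratio was that of miR-466b-3p, with 384 CPM in NEG and 92.5 CPM in UNT, a ratio of 4.15 (3.35 to 5.10). These repeats are nearly identical, and how reads that match several were counted is not given in the sources used here, so single members are uncertain. Hairpins made without Drosha or Dicer had 2 higher and 1 lower of 5 (median 0.00), and miRNAs with late registry numbers 1 higher and 2 lower of 9 (-0.01). Of the 54 names of the Dlk1-Dio3 cluster none was compared, and they summed to 14.1 CPM in NEG and 14.2 CPM in UNT.

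Markers of other cell types were looked for among the same counts. The epithelial list of miR-141, the miR-200 group, miR-203, miR-205, miR-375 and miR-429 summed to 810 CPM in NEG and 187 CPM in UNT, with 1173, 628 and 364 CPM in the 0 h pools and 202 to 1173 CPM over the labelled libraries. The highest of these is the 0 h pool of experiment 1, whose code NEG shares. Of its 11 names, 4 had counts in NEG and 7 were at 0. The skin miRNA miR-205-5p had 184 counts (648 CPM) in NEG and 1166 (182 CPM) in UNT, a ratio of 3.56 (3.03 to 4.17), and 1150, 621 and 359 CPM in the 0 h pools. Its partner strand miR-205-3p had 20 counts (70.4 CPM) in NEG and 3 (0.468 CPM) in UNT, and 21.6, 2.32 and 1.52 CPM in the 0 h pools. miR-203-3p had 20 counts (70.4 CPM) in NEG and 18 (2.81 CPM) in UNT, and 1.16, 2.98 and 1.95 CPM in the 0 h pools. The last 2 and miR-141-3p, with 6 counts in NEG and 10 in UNT, stood higher in NEG than in any of the 21 labelled libraries, on few counts. The part of another source of RNA in these values was not tested. The blood list, led by miR-486, summed to 680 CPM in NEG and 496 CPM in UNT, the neural list to 366 and 465 CPM in NEG and UNT, and the muscle list to 3.52 and 3.27 CPM. The defining miR-451a had 1 count in NEG, and no name of the embryonic stem cell or liver lists had a count in NEG.

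By arm, 5p strands took 69.1% of the counts in NEG and 49.3% in UNT, against 61.2, 62.5 and 57.3% in the 0 h pools and 49.0% in 4SU total. The 5p strands of the let-7 family took 32.6% of the counts in NEG and 10.8% in UNT. By number the arms differed less. Of 103 compared 5p strands 19 were higher and 30 lower, and of 97 compared 3p strands 14 were higher and 28 lower, with median log2 ratios of -0.13 and -0.29. Of 4 compared names that give no arm, 2 were lower.

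Arms of the same hairpin were compared by the odds of the minor over the major strand, the major being the strand with more counts in the totals. In 53 hairpins the minor strand was at least 2-fold higher in NEG in 15 (28.3%) and at least 2-fold lower in 17 (32.1%), with a median log2 odds ratio of -0.17. For miR-296 the 3p strand took 96.9% of the hairpin's counts in NEG and 49.3% in UNT, an odds ratio of 31.1 (19.1 to 50.7), and 63.3, 84.3 and 55.7% in the 0 h pools. For miR-30e the 3p strand took 18.7% in NEG and 2.34% in UNT, an odds ratio of 9.66 (7.41 to 12.6), and 29.8, 31.6 and 43.8% in the 0 h pools. For miR-342 the 5p strand took 51.4% in NEG and 11.8% in UNT, an odds ratio of 7.87 (4.90 to 12.7). For miR-30a the 3p strand took 7.00% in NEG and 1.38% in UNT, with an odds ratio of 5.39, and for miR-423 the 5p strand took 75.6% in NEG and 45.2% in UNT, with an odds ratio of 3.74.

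The opposite held for several abundant hairpins. The minor strand of miR-92a took 0.105% in NEG and 1.17% in UNT, an odds ratio of 0.0909 (0.0582 to 0.142). That of miR-21a took 0.154% in NEG and 1.05% in UNT, an odds ratio of 0.151 (0.0916 to 0.248), and that of let-7e 0.294% in NEG and 1.40% in UNT, an odds ratio of 0.212 (0.140 to 0.323). The minor strands of miR-31 (odds ratio 0.0369, 0.00743 to 0.183) and miR-98 (0.110, 0.0433 to 0.279) rest on 1 and 4 counts in NEG. By number of hairpins the beads thus returned neither minor nor major strands as a class in these 2 libraries. By pooled counts the minor strands took 6.04% in NEG and 3.02% in UNT, while their median share over hairpins was 9.63% in NEG and 11.6% in UNT.

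By isoform, the pooled counts of NEG held more canonical, trimmed, A-tailed and U-tailed reads than UNT and fewer templated 3′ extensions and C tails. Canonical reads made up 58.2% (58.0 to 58.4) in NEG and 54.4% (54.3 to 54.4) in UNT, above all 21 labelled libraries, which had 45.6 to 54.3%. Trimmed reads made up 17.1% in NEG and 14.5% in UNT, and the 0 h pools had 20.5, 17.7 and 23.7%. Templated 3′ extensions made up 11.6% in NEG and 18.8% in UNT (ratio 0.620, 0.613 to 0.626), below all labelled libraries, and templated 5′ extensions 0.260% in NEG and 0.363% in UNT. Reads with an added 3′ A made up 4.62% in NEG and 3.18% in UNT (ratio 1.46, 1.43 to 1.48), those with an added 3′ U 3.09% in NEG and 2.71% in UNT (1.14, 1.11 to 1.16), and those with an added 3′ C 0.447% in NEG and 1.55% in UNT (0.289, 0.274 to 0.306). The class of mixed 3′ additions was at 4.51% in NEG and 4.49% in UNT, and its ratio of 1.01 (0.988 to 1.02) was not distinguishable from 1 at this depth. By direction alone, without intervals, single miRNAs often differed from the pooled shares. Among 86 miRNAs with at least 100 counts in NEG, the U-tailed share was higher in NEG in 28 and lower in 51. The A-tailed share was higher in 21 and lower in 60, and the trimmed share higher in 27 and lower in 58. A class rare in a miRNA can be at 0 in NEG by its lower depth alone and then counts as lower. The median U-tailed share over these miRNAs was 0.500% in UNT. For rare classes the counts of directions thus cannot tell an isoform difference from the lower depth of NEG. miR-351-5p held 22.8% of the U-tailed counts in NEG and 1.84% in UNT.

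Isoform shares follow which miRNAs are abundant, so the UNT profile of each miRNA was also weighted by its abundance in NEG, a step added after the classes had been seen. This gave 56.7% canonical, 17.4% trimmed, 11.9% templated 3′ extensions, 5.34% A-tailed, 2.79% U-tailed and 0.480% C-tailed reads, most of them near the values of NEG. The 3′ A class then had a NEG over UNT ratio of 0.866, below 1, and the trimmed class 0.984. miR-21a-5p illustrates this for the C tails. It held 79.4% of them in NEG and 94.3% in UNT, while its own reads were C-tailed to 10.4% (9.78 to 11.0) in NEG and 10.9% (10.8 to 10.9) in UNT.

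Added 5′ C was the class with the highest ratio, at 0.0609% in NEG and 0.0143% in UNT (4.25, 3.59 to 5.00), and with the weighting above the share was 0.0153%. It rested on miR-26a-5p, a regulator of Ezh2, with 121 of the 173 reads in NEG. Of the miR-26a-5p reads 0.906% (0.752 to 1.08) in NEG and 0.0588% (0.0480 to 0.0712) in UNT carried the extra C, a ratio of 15.4 (11.8 to 20.2). In the 0 h pools the share was 0.671, 0.171 and 0.356%, and in 4SU total 0.0632%. NEG and the 0 h pools were thus above the totals, and the highest of the 0 h pools was experiment 1, whose code NEG shares. miR-351-5p differed in its U tails, which made up 18.8% (18.0 to 19.5) of its reads in NEG and 9.39% (9.08 to 9.70) in UNT, with 13.6, 7.35 and 6.15% in the 0 h pools.

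**Figure D3:**
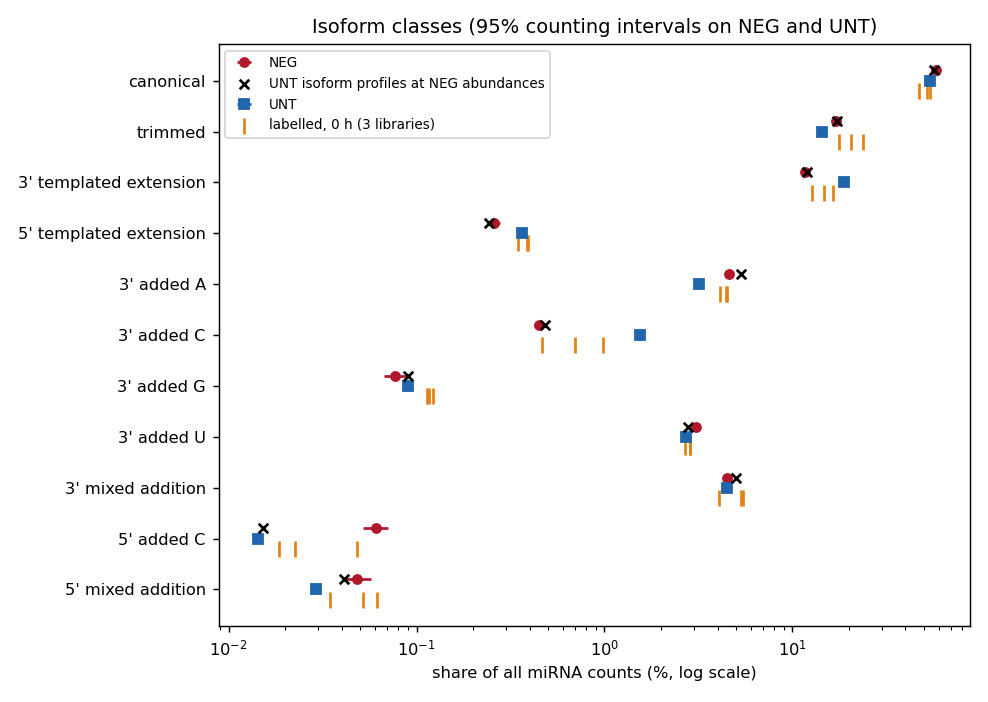
Share of all miRNA counts in each isoform class (horizontal axis, percent, log scale) in NEG (circles), UNT (squares) and the 0 h labelled pools (ticks), with 95% counting intervals on NEG and UNT. Crosses give the UNT profiles at the abundances of NEG. They lie near NEG in most classes, and added 5′ C, at 0.0609% in NEG and 0.0143% in UNT, is the exception.

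Base composition was read from the RefSeq mature sequence, which 171 of the 204 compared miRNAs had (83.8%). Across these 171 miRNAs, which share both libraries and are not independent, the log2 ratio of NEG over UNT had a Spearman correlation of 0.02 with the number of U, the base 4SU replaces. The share of U averaged 29.3% in the 24 higher and 29.5% in the 52 lower miRNAs with a sequence. With the share of G the correlation was 0.36, with A -0.23, with C -0.10 and with length 0.00. The share of G averaged 34.1% in the higher and 22.6% in the lower miRNAs. Of 4 bins of nearly equal size, the bin richest in G (31.8 to 55.0%) had a median log2 ratio of 0.61, with 14 higher and 7 lower of 43. In the other bins, in rising order of G, the medians were -0.63, -0.71 and -0.30. The 5p sequences of the let-7 family hold 7 to 10 G each. In the bin richest in G lie let-7a-5p, let-7b-5p, let-7c-5p, let-7d-5p, let-7e-5p and let-7i-5p, with 36.4 to 45.5% G. All of these but let-7i-5p, with a ratio of 1.83, met the rule for higher in NEG. No value without this family was computed. For the 0 h pool of experiment 1 over 4SU total the same correlations were 0.09 with the number of U and 0.25 with the share of G.

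**Figure D4:**
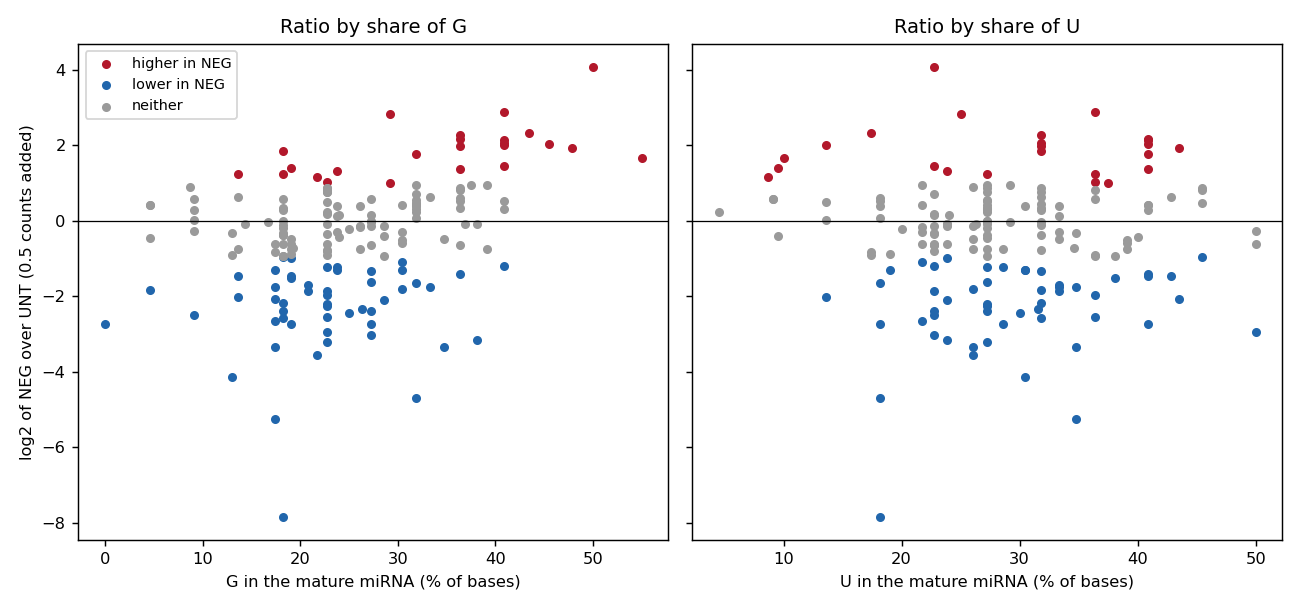
Log2 ratio of NEG over UNT (vertical axis, 0.5 counts added to each library) of 171 miRNAs against the share of G (left) and of U (right) in the mature sequence, in percent of bases. Higher miRNAs average 34.1% G and lower ones 22.6%, while the averages of U are 29.3 and 29.5%.

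NEG was nearer to the labelled libraries than to the totals by the share of counts and by Pearson's correlation, but not by rank. Across miRNAs, the Pearson correlation of log2 levels with NEG was 0.959 to 0.972 for the 21 labelled libraries, 0.950 for UNT and 0.940 for 4SU total. Spearman's correlation was 0.801 to 0.842 for the labelled libraries, 0.812 for UNT and 0.800 for 4SU total, so UNT lay within the labelled range. The share of counts that would have to move between miRNAs to turn a profile into that of NEG was 14.7 to 25.4% for the labelled libraries and 36.1 and 36.2% for UNT and 4SU total. Of the 204 compared miRNAs, 116 had a NEG level within the range of the 21 labelled libraries, against 95 for UNT and 89 for 4SU total. Within experiment 1, whose code NEG shares, the share of counts to move was 14.7 to 23.5%, and within experiments 2 and 3 it was 15.4 to 22.5% and 20.2 to 25.4%. By ratios with 0.5 counts added to each library and without regard to intervals, 90 of the 204 miRNAs were past 2-fold between NEG and UNT, 56 to 80 between NEG and a labelled library and 22 between 4SU total and UNT. The totals were thus nearer to each other than either was to NEG.

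The change on purification could be set side by side for unlabelled and labelled cells without a shared library. Across the 204 miRNAs the log2 ratio of NEG over UNT had Pearson correlations of 0.61, 0.66 and 0.60 with the log2 ratio of the 0 h pool over 4SU total in experiments 1, 2 and 3, and Spearman correlations of 0.56, 0.63 and 0.53. UNT and 4SU total share a code, as do NEG and experiment 1. Of the 33 miRNAs higher in NEG, 27, 25 and 22 were above 0 in the labelled comparison, against 99, 90 and 89 of all 204. Of the 60 lower ones, 49, 52 and 49 were below 0, against 105, 114 and 115 of all 204. For the higher ones the medians in the labelled comparison were 0.78, 1.28 and 0.64, and for the lower ones -1.48, -1.78 and -1.38.

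**Figure D5:**
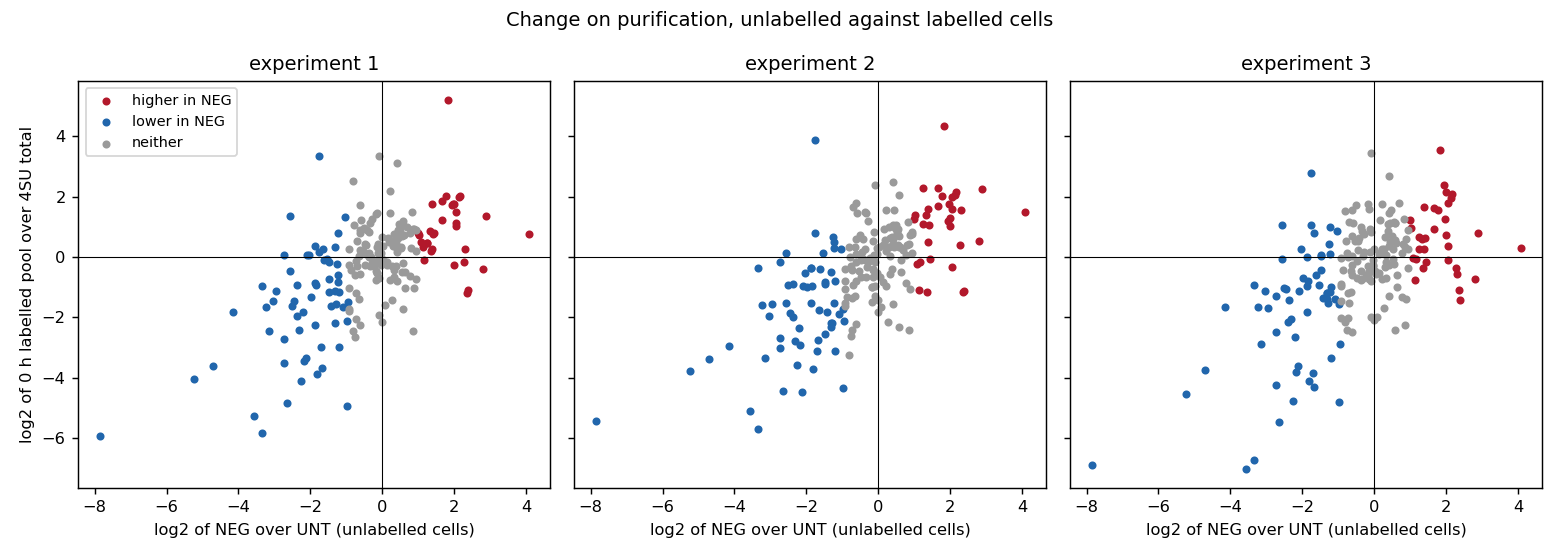
Log2 ratio of the 0 h labelled pool over 4SU total (vertical axis) against the log2 ratio of NEG over UNT (horizontal axis) for 204 miRNAs in experiments 1, 2 and 3. Of the 33 miRNAs higher in NEG 27, 25 and 22 lie above 0, and of the 60 lower ones 49, 52 and 49 lie below 0.

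NEG was also set against the labelled pool at 0 h, the comparison in which both sides were purified. edgeR's quasi-likelihood test over all 24 libraries, with Benjamini-Hochberg adjustment, tested 521 miRNAs. It called 6 higher in NEG (1.15%) and 3 lower (0.576%), with 76 at an unadjusted p under 0.05. NEG is 1 library, and its spread was assumed to equal that of the labelled groups, for which the labels name 3 biological replicas. With DESeq2 the counts were 14 and 7. With NEG and the 0 h libraries alone in edgeR they were 1 and 0, and without the 0 h library of experiment 3 they were 4 and 3.

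The smallest adjusted p was that of miR-378a-3p, with 807 CPM in NEG and 126 ± 4.39 CPM at 0 h (SD, n = 3), a log2 change of 2.71 ± 0.33 (SE, adjusted p = 4.08e-05, edgeR). miR-7224-3p rose by 2.14 ± 0.35 on the log2 scale (229 CPM in NEG, 53.6 ± 6.51 CPM at 0 h, adjusted p = 0.00159, edgeR), and miR-542-3p by 2.36 ± 0.46 (127 CPM in NEG, 25.3 ± 1.72 CPM at 0 h, adjusted p = 0.00801, edgeR). miR-203-3p rose by 5.18 ± 1.04 on 20 counts in NEG (70.4 CPM, 2.03 ± 0.911 CPM at 0 h, adjusted p = 0.00920, edgeR). miR-30c-5p rose by 1.30 ± 0.30 (3867 CPM in NEG, 1615 ± 217 CPM at 0 h, adjusted p = 0.0244, edgeR). miR-296-3p rose by 2.99 ± 0.72 (1867 CPM in NEG, 240 ± 102 CPM at 0 h, adjusted p = 0.0281, edgeR), and its call was lost when the 0 h pool of experiment 1 or of experiment 3 was left out, with an adjusted p of 0.0951 and 0.111. In all 6, NEG was above each of the 0 h libraries. With NEG and the 0 h libraries alone, only miR-203-3p of the 6 kept its call. The call of miR-296-3p was lost with upper-quartile scaling too, and that of miR-30c-5p without a filter. The call of miR-30c-5p was lost without experiment 3 (adjusted p = 0.0713, edgeR), and that of miR-203-3p held in all 9 alternatives (adjusted p 2.40e-07 to 0.0403, edgeR or DESeq2).

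The miRNAs that fell were few and low. miR-365-3p fell by 1.47 on the log2 scale (81.0 CPM in NEG, 231 ± 16.2 CPM at 0 h, adjusted p = 0.0148, edgeR), and miR-676-3p fell by 3.11 on 4 counts in NEG (14.1 CPM, 126 ± 46.7 CPM at 0 h, adjusted p = 0.0260, edgeR). miR-339-3p had 0 counts in NEG and 21.7 ± 4.16 CPM at 0 h (adjusted p = 0.0281, edgeR), at least 2.05-fold lower with 3 counts as the floor. The calls of all 3 were lost with upper-quartile scaling (adjusted p of 0.0637 for miR-365-3p, 0.0840 for miR-676-3p and 0.0586 for miR-339-3p) and with NEG and the 0 h libraries alone (0.245, 0.168 and 0.168). Without a filter miR-365-3p and miR-339-3p were lost (0.243 and 0.0900), and with DESeq2 miR-339-3p (0.169).

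The header code, as a block that NEG shares with experiment 1, changed the number of calls. With this block, added after seeing the data, edgeR called 34 of the 521 miRNAs higher (6.53%) and 49 lower (9.40%), the 9 above among them. NEG is then set in effect against experiment 1. The differences between experiments are also taken out of the spread that the p-values of this fit measure. In this fit several miRNAs that stood apart from UNT were also called against the 0 h pool. miR-351-5p rose by 2.20 ± 0.26 on the log2 scale (SE, adjusted p = 1.88e-07, edgeR), miR-423-5p by 2.06 ± 0.24 (1.82e-07), let-7e-5p by 2.01 ± 0.26 (3.67e-07) and miR-744-5p by 1.83 ± 0.26 (3.17e-06). Without the block, miR-351-5p had an adjusted p of 0.108 and let-7e-5p of 0.423. Of the let-7 family, let-7a-5p, let-7b-5p, let-7c-5p and let-7d-5p rose by 0.65 to 0.79 with the block (adjusted p 0.00293 to 0.0176, edgeR), and miR-98-5p fell by 0.57 (0.0392). miR-92a-1-5p fell by 2.81 ± 0.35 and miR-29a-3p by 1.41 ± 0.23 (adjusted p 3.27e-07 and 3.46e-05, edgeR), while miR-30e-5p, lower in NEG than in UNT, rose by 0.91 ± 0.24 (0.00688). let-7f-5p, let-7i-5p, let-7g-5p, miR-22-3p and miR-21a-5p were called in neither fit. A call that was missed does not show that the levels were the same. What the codes stand for is not given in the sources used here. By the counting rule used for UNT, NEG against the 0 h library of experiment 1, with the same code, gave 17 higher (8.67%) and 46 lower (23.5%) of 196 miRNAs.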

How the data were processed

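Small RNA was sequenced from mouse 3T9 cells in 24 libraries, prepared with a TruSeq small RNA kit per the labels' protocols. The deposited table gives raw counts per miRNA and isoform class, and CASAVA 1.8.0 is named in the submitters' processing notes. For the aligner, the annotation, reads with several matches and the class definitions, the processing is not given in the sources used here. The table holds 7129 entries, of which 1 is a duplicate and was left out, for 1221 miRNA names and 20 classes. Total entries equalled the sum of their classes in all 25728 cells compared, so only totals or only classes were summed.

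Groups were taken from sample titles. CPM values are counts scaled by the miRNA total of a library. NEG over UNT has an exact binomial 95% interval conditional on the summed count, shares have Clopper-Pearson intervals, and hairpins have Wald intervals of the odds ratio with 0.5 counts added. Log2 ratios have 0.5 counts added. A call needs a ratio of at least 2 or at most 0.5 and an interval that leaves out 1. The correlations of levels used log2 of CPM plus 5. NEG against 0 h was tested with edgeR 4.0.16 (R 4.3.3, quasi-likelihood, TMM, all libraries in 10 groups) at an adjusted p of 0.05, with DESeq2 1.42.0 as an alternative. Where the labels name experiments as biological replicas, p-values measure the spread between them. The fit with the header code as a block is the exception. It gives experiments 2 and 3 their own terms, so its p-values measure the spread left after these. Other steps used Python 3.11.15 and SciPy 1.17.1. The edgeR and interval steps were tested on simulated data.

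The miRNAs named are the 10 most abundant in NEG, the 12 with the highest lower bound and the 12 with the lowest upper bound among those past 2-fold, the 5 most abundant in UNT with no count in NEG, the 5 highest and 5 lowest hairpins, up to 3 members of each list, and the called miRNAs of the edgeR test. Others were chosen after their values were seen. The comparison, its members and the lists were chosen with earlier results of these data known. The alternatives were other scalings, filters and fold thresholds, canonical reads only, 4SU total in place of UNT, and leaving out each 0 h library. Added after seeing the data were the isoform profiles at equal composition, NEG against experiment 1 alone, and the header code as a block in edgeR.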

Additional observations from a re-analysis of the deposited data

Results flagged for a closer look

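For 8 of the 204 compared miRNAs a call between NEG and UNT was opposite in sign to the ratio of the 0 h pool over 4SU total in all 3 experiments. The difference between the 2 comparisons was not tested, since NEG, UNT and 4SU total are 1 library each. All ratios that follow are on the log2 scale. 3 miRNAs were higher in NEG. For miR-378a-3p the ratio was 2.37, against -1.19, -1.16 and -1.09 in experiments 1, 2 and 3. For miR-7224-3p it was 2.38, against -1.08, -1.13 and -1.42. For miR-191-5p, with 23993 CPM in NEG and 10677 CPM in UNT, it was 1.17, against -0.09, -0.16 and -0.05, so that the labelled pools hardly departed from 4SU total.

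The other 5 were lower in NEG, on 2 to 40 counts. The ratio was -1.75 for miR-676-3p, against 3.35, 3.89 and 2.79 in the labelled comparison. NEG held 14.1 CPM of it and UNT 53.3 CPM, the 0 h pools 121, 175 and 81.5 CPM and 4SU total 11.7 CPM, so the totals also differed from each other. The ratio was -1.75 for miR-149-5p, against 0.16, 0.79 and 1.04. It was -1.04 for miR-145a-3p, against 1.31, 0.25 and 0.86. It was -2.58 for miR-340-5p, with 2 counts in NEG, against 1.34, 0.14 and 1.07. It was -1.23 for miR-99a-5p, against 0.79, 0.51 and 0.11. For these last miRNAs, miR-340-5p and miR-99a-5p, NEG held 7.04 and 49.3 CPM, near the 8.18 and 49.9 CPM of 4SU total. UNT held 52.4 and 119 CPM of them, so here too the totals differed from each other.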

How the results depend on the processing

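Counts of miRNAs higher in NEG depended on the settings: 21 with TMM factors, 21 with totals that leave out the most abundant miRNAs, 67 of 791 with no filter and 13 at 4-fold, against 33. The lower miRNAs numbered 28 at 4-fold. The median log2 ratio was -0.60 with TMM factors and also with totals without the most abundant miRNAs, and 1.01 with no filter, where miRNAs with few counts in UNT and none in NEG enter at the added 0.5 counts. With every miRNA weighted equally, by direction and without intervals, 1 isoform class was higher and 9 were lower. For rare classes such a count also reflects the lower depth of NEG. The trimmed class had a ratio of 0.956 and mixed 3′ additions 0.911 without the most abundant miRNAs, and mixed 3′ additions 0.754 against 4SU total. With the UNT profiles at the abundances of NEG, added after seeing the data, the ratios were 0.984 for trimmed, 1.06 for templated 5′ extensions, 0.866 for added 3′ A and 0.898 for mixed 3′ additions. The minor strand was higher in 8 and lower in 9 of 33 hairpins with canonical reads only, and lower in 9 of 32 with at least 30 expected counts. NEG against 0 h gave 14 higher and 7 lower with DESeq2, 1 and 0 with NEG and the 0 h libraries alone, where 79 had an unadjusted p under 0.05, and 9 higher and 9 lower with no filter. Upper-quartile scaling gave 0 lower, with 74 at an unadjusted p under 0.05. Leaving out 1 of the 0 h libraries gave 4 to 9 higher and 3 to 4 lower. The counting rule against experiment 1, added after seeing the data, gave 17 and 46. NEG held 261 miRNAs with at least 3 counts. The cause of these changes was not tested. Another 55 values of the main comparisons kept their side or stayed within 1.5 times. With the header code as a replicate block, added after seeing the data, NEG against 0 h gave 34 higher and 49 lower. For NEG against UNT no such fit exists, since they are 1 library each with different codes. The depth of NEG sets the limits: the floor of 3 counts equals 10.6 CPM there.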

Other observations

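Below the count needed for a comparison, 34 further miRNAs had an interval wholly above 1 and a ratio of at least 2, on 2 to 20 counts in NEG. Beside miR-205-3p and miR-203-3p they included miR-351-3p, the partner strand of miR-351-5p, with 14 counts (49.3 CPM) in NEG and 18 (2.81 CPM) in UNT, and 21.2, 8.94 and 8.45 CPM in the 0 h pools. miR-664-5p had 18 counts (63.4 CPM) in NEG and 81 (12.6 CPM) in UNT. miR-3620-5p had 11 counts (38.7 CPM) in NEG and 23 (3.59 CPM) in UNT. These 3 were picked after their values were seen.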
